A study of Mus musculus with 7 samples.

Results

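Ureteric bud stalk was compared with metanephric mesenchyme in embryonic mouse kidneys (stage E12.5). The comparison rests on 4 of the 7 arrays of the study, 2 biological replicates of microdissected stalk and 2 of microdissected mesenchyme, which were chosen by their labels. It covers all 18193 genes that have a probe set annotated to them alone. Of the other 3 arrays, 2 hold microdissected ureteric bud tips of the same stage and serve here for a shared estimate of the spread. The last holds a confluent subclone of mIMCD-3, a mouse line of the inner medullary collecting duct. This array enters no test here but counts in the choice of each gene's probe set. Genotype, strain and the number of embryos behind an array are not given in the labels used here. No transgene or sorted marker is named for the tissues, so a group is what the dissection took, with whatever cells lay around it. The question the comparison addresses is which genes separate this epithelial tube from the non-epithelial tissue it grows into.

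The ureteric bud is an epithelial outgrowth of the nephric duct that invades the metanephric mesenchyme and branches there. Its tips face the nephron progenitors, which secrete Gdnf, the ligand of the bud receptor Ret, and which respond to the bud ligand Wnt9b by forming nephrons. The stalks behind the tips elongate and later become collecting ducts and ureter. The mesenchyme also holds stromal cells and vessels, and a mesenchyme around the ureter that answers to Shh from the epithelium and gives rise to ureteric smooth muscle.

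Each value below is the log2 of the intensity of the brightest probe set of a gene. The brightest was taken over all 7 arrays, of which only 2 are mesenchyme. This choice can favour probe sets that are bright in the bud or the line, and so larger differences on the higher side. The tissue arrays had medians of 45.5 to 49.0 before the log2 step and lower quartiles of 3.99 to 4.23 after it. Across all non-control probe sets, replicate arrays correlated at r = 0.994 in mesenchyme and 0.997 in stalk, and probe sets are not independent replicates. Differences are stalk minus mesenchyme in log2 units, with the standard error (SE) of a limma fit and a p-value adjusted over all genes. A gene is called at an adjusted p under 0.05. Having 2 arrays a group is what limits the precision.

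Stalk differed from mesenchyme mostly through genes that were brighter in stalk. Among the largest differences was that of Cdh1, the gene of the adherens junction protein E-cadherin, which read 4.0 and 3.68 in the mesenchyme arrays and 10.45 and 10.49 in the stalk arrays. Its difference of 6.63 ± 0.15 (SE, n = 2 arrays a group; adjusted p = 1.34e-06) starts from mesenchyme values below the lower quartile of their arrays, so no fold is given. In all, 782 genes were higher in stalk, which is 4.3% of those tested, and 225 were lower, which is 1.24%. The median difference was 1.18 among the genes called higher, -0.95 among those called lower and -0.04 over all genes. Large differences lay on the higher side: 154 genes were higher by at least 2 and 64 by at least 3, whereas 14 were lower by at least 2 and 0 by at least 3. The stalk and mesenchyme arrays overlapped in 0 of the called genes, which follows largely from the call itself and is no further evidence. In dissected tissue, fewer cells of a type and less RNA per cell cannot be told apart.

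The number of calls depended on the fit and on single arrays. A block for the replicate number gave 1231 higher and 577 lower genes. Taking the probe set brightest over the 4 stalk and mesenchyme arrays gave 759 higher and 226 lower. Of the alternatives counted below, the fit on the 4 stalk and mesenchyme arrays alone and those without a tip array are the same fit. They are not separate checks. Dropping mesenchyme replicate 1 brought the lower genes to 93, and dropping mesenchyme replicate 2 left 491 higher and 138 lower. Dropping stalk replicate 1 left 427 and 96, and dropping stalk replicate 2 left 473 and 92. Among the called genes with several probe sets, 138 of 479 higher and 15 of 115 lower genes had a probe set of the opposite sign, and 0 had a probe set called the opposite way. Where another choice of probe set moved a called difference of a gene described here by over 1.5 times, the value is given beside it, and the gene was still called unless its adjusted p is given.

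**Figure D1:**
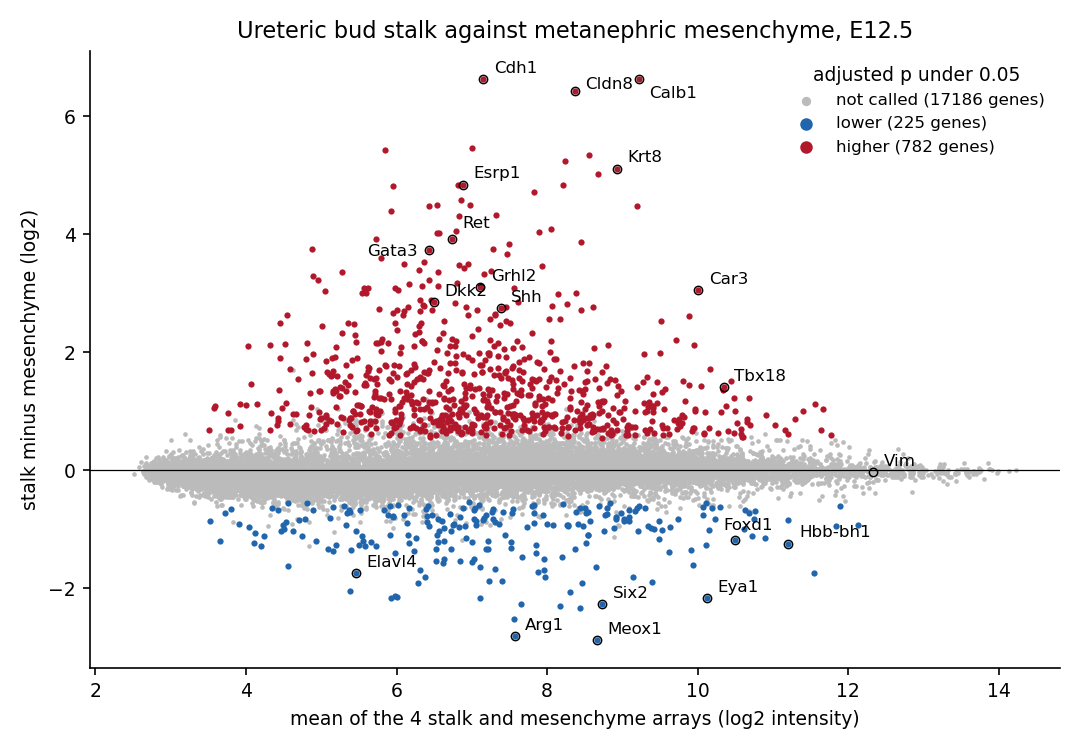
Stalk minus mesenchyme (log2, vertical axis) against the mean of the 4 arrays (log2 intensity, horizontal axis) for 18193 genes, with genes called higher in red (782), lower in blue (225) and others in grey. The red points reach above 6 (Cdh1, Calb1 and Cldn8), while the lowest blue point, Meox1, is at -2.87.

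Transcription factors of the nephric duct and of epithelia were higher in stalk. Of 21 such genes measured, 16 were higher and 0 lower, beside 4.3% and 1.24% of all genes, and their median difference was 2.16. The same 4.3% and 1.24% are the shares to set beside the counts of each list below. Tfcp2l1, a factor of the collecting duct, read 4.78 and 3.78 in mesenchyme and 9.74 and 9.71 in stalk, a difference of 5.45 ± 0.28 (adjusted p = 4.42e-05). Emx2, a homeobox gene required for the bud to branch, read 6.06 and 5.68 in mesenchyme and 9.98 and 9.84 in stalk. Gata3, a regulator of the nephric duct, read 4.55 and 4.59 against 8.40 and 8.20, a difference of 3.73 ± 0.14 (adjusted p = 1.13e-05). Stalk and mesenchyme arrays stood far apart for each of these factors, with gaps of 4.93, 3.78 and 3.62 between the nearest arrays. Grhl2, a grainyhead factor of epithelia, was at 5.59 and 5.54 in mesenchyme and at 8.66 in both stalk arrays. Sim1 was 3.52 higher and Lhx1, a factor of the nephric duct, 2.79 higher. The members not called included Grhl3, which was dim in every tissue array (3.67 to 4.12), and Pax8, whose difference of 0.59 passed only in some fits (adjusted p = 0.0937, 0.00972 with the block and 0.00972 to 0.65 over 13 alternatives). Probe sets disagreed for Tfcp2l1, Sim1 and Grhl2. With the median over a gene's probe sets the difference of Tfcp2l1 was 0.21 (adjusted p = 0.634, and 4.68e-12 to 0.634 over 13 alternatives), that of Sim1 1.93 and that of Grhl2 1.33. With the probe set brightest over the 4 arrays, Grhl2 differed by 0.49 (adjusted p = 0.131, and 8.01e-11 to 0.131 over 13 alternatives).

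Genes of cell junctions were also higher in stalk. Of 22 genes of cadherins, catenins and desmosomes, 11 were higher and 0 lower, with a median of 0.59. Besides Cdh1, these included Cdh16, the kidney cadherin, which read 5.78 and 6.0 in mesenchyme and 11.23 in both stalk arrays. Epcam, an epithelial adhesion molecule, read 7.15 and 6.75 in mesenchyme and 11.45 and 11.41 in stalk. The desmosome genes Dsp and Dsg2 were 4.02 ± 0.27 and 3.42 ± 0.15 higher. Epcam was 2.50 and Dsg2 1.64 higher with the median over probe sets. The beta-catenin gene Ctnnb1, whose product binds E-cadherin and also carries Wnt signals, read 13.22 and 13.29 in mesenchyme and 13.28 and 13.18 in stalk and differed by -0.02 ± 0.12. Cdh4, the R-cadherin gene, had a negative difference of -0.47 that passed only in some fits (adjusted p = 0.0867, 0.0253 with the block and 0.0253 to 0.739 over 13 alternatives).

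Tight junction genes were higher in stalk as well. Of 25 genes of tight junctions and apical polarity, 17 were higher and 0 lower, with a median of 1.24. Cldn8, a claudin of the collecting duct, read 5.25 and 5.06 in mesenchyme and 11.56 and 11.59 in stalk, a difference of 6.42 ± 0.13 (adjusted p = 1.34e-06). The claudin genes Cldn4, Cldn6 and Cldn7 were 5.24 ± 0.12, 4.84 ± 0.18 and 4.71 ± 0.15 higher. Ocln, which encodes the strand protein occludin, read 4.56 and 4.24 against 9.25 and 9.24, a difference of 4.84, or 3.12 with the probe set brightest over the 4 arrays. Cldn9 read 8.97 and 8.57 in mesenchyme and 8.44 and 8.25 in stalk, and its difference of -0.43 was called in 1 of 13 alternatives, the block (adjusted p = 0.0422; 0.0422 to 0.895 over all 13). Tjp1, the gene of the scaffold protein zonula occludens, read 10.43 and 10.36 in mesenchyme and 10.37 and 10.35 in stalk. Ctnnb1 and Tjp1 were singled out after their values were seen.

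Keratins, splicing regulators and the apical membrane were the other epithelial groups that were higher in stalk. Each of 8 keratin and splicing genes was higher, with a median of 3.14, and 6 to 8 were higher when a stalk or mesenchyme array was left out. Krt8 and Krt18, the keratin pair of simple epithelia, were 5.11 ± 0.12 and 5.01 ± 0.15 higher. Krt7 read 4.92 and 4.45 in mesenchyme and 8.98 in both stalk arrays. Esrp1, which sets epithelial splice forms, read 4.31 and 4.61 against 9.27 and 9.34. Of 17 genes of apical trafficking and membrane proteases, 11 were higher and 0 lower, with a median of 1.89. Mal2, whose product carries proteins to the apical surface, read 2.95 and 3.32 in mesenchyme, below the lower quartile of these arrays, and 8.59 and 8.52 in stalk. Myo5b, a motor of apical recycling, was 2.89 ± 0.17 higher, or 1.27 with the median over its probe sets. The membrane serine proteases Prss8 and Tmprss2 were 3.17 ± 0.22 and 3.12 ± 0.13 higher, and Spint1, the gene of an inhibitor of such proteases, was 3.47 ± 0.16 higher.

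**Figure D2:**
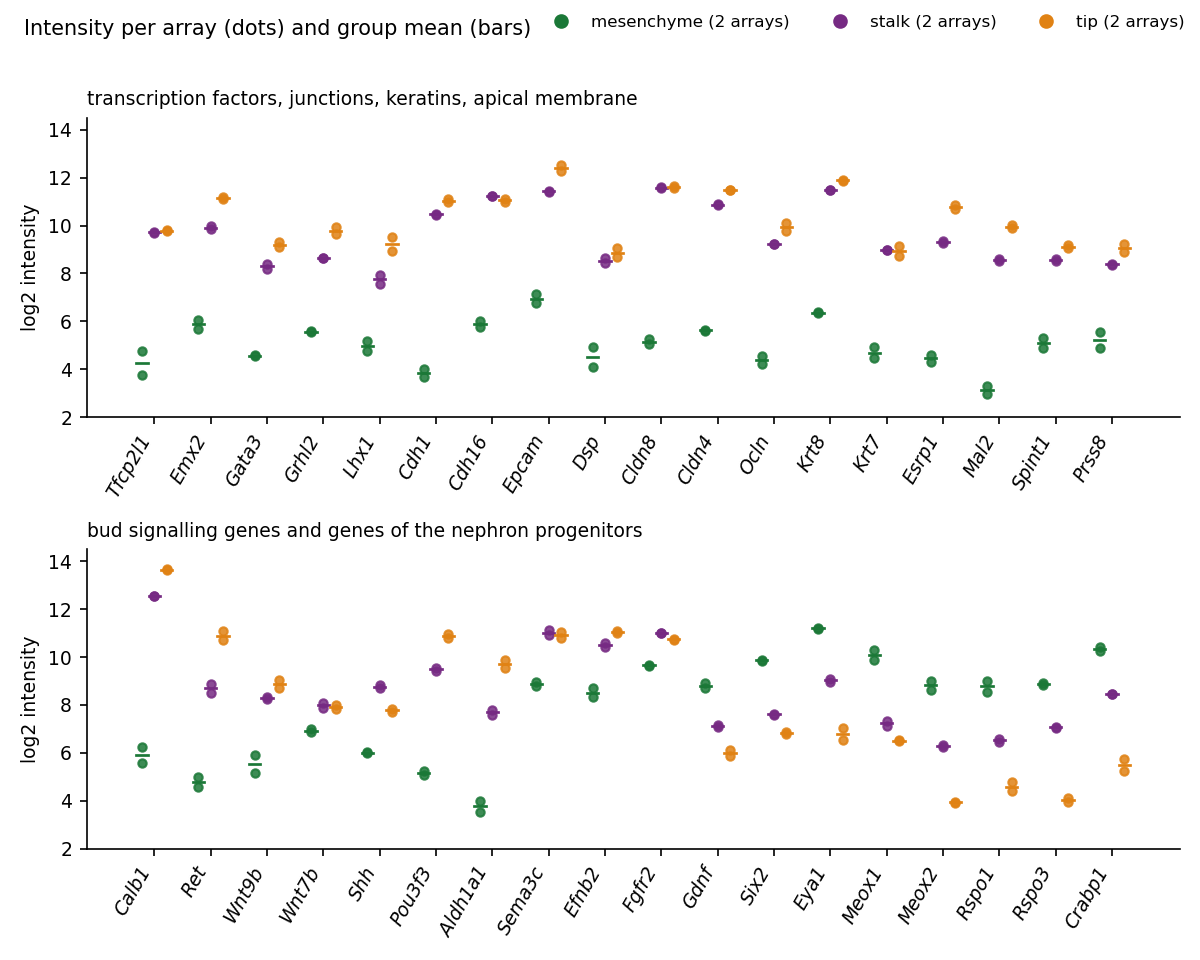
Log2 intensity (vertical axis) of single genes in each mesenchyme, stalk and tip array (dots, 2 per group), with group means as bars; the upper panel holds epithelial genes and the lower panel bud signalling genes and genes of nephron progenitors. Every gene of the upper panel is higher in both stalk arrays than in both mesenchyme arrays, and from Gdnf on in the lower panel the order is the opposite; the tip arrays are shown for reference.

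The promoters of the genes that were higher in stalk were read for a motif of known epithelial repressors. The Snail and Zeb factors bind the E-box CACCTG, which reads CAGGTG on the other strand, and repress E-cadherin and other epithelial genes through it. The 250 bases before each RefSeq start (build GRCm38.p6) were searched on both strands. Of 32851 promoters in the table, 17.2% hold the hexamer. Counted once per gene, 19.9% of 14452 measured genes with an entry hold it before a start, as do 34.1% of 599 genes called higher and 20.2% of 163 called lower. Among genes called higher by at least 2 the share was 45% (50 of 111), and among those higher by at least 3 it was 47.8% (22 of 46). Of the 20 genes with the largest differences 13 have an entry, and 11 of these hold the hexamer. Of the 20 with the lowest differences 11 have an entry, and 1 of these, Hpgd, holds it.

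The windows of genes called higher were slightly richer in G and C (median 60.8%, against 57.6% for measured genes). Within bands of this content the shares for genes called higher and for measured genes were 29.3% and 16.3% (under 50%), 36.2% and 22.3% (50 to under 60%), 33.2% and 20.9% (60 to under 70%) and 36.4% and 17.4% (70% or more). For genes called lower the shares in the same bands were 11.4% of 35 genes, 31.5% of 54, 18.6% of 43 and 12.9% of 31, so in the second band they too exceeded measured genes. Genes with more starts have more windows, and among genes with 1 start, a subset chosen after the shares were seen, the shares were 31.1% and 17%. The longer grainyhead motif AACCGGTT was found in 0.116% of all promoters and in 0.166% of those of measured genes (30 of 18109). It was found in 0.354% of promoters of genes called higher (3 of 847) and 0.901% of those called lower (2 of 222). A match is a description of these letters and not of binding.

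The windows of 5 strongly higher genes, chosen because they hold a match, and of 2 lower genes without one show what such a match looks like; capitals mark the E-box, and the last letter lies next to the start. Their places are chr5:134946935-134947184 (minus strand) for Cldn4, chr15:102004343-102004592 (minus strand) for Krt8, chr17:87635729-87635978 (plus strand) for Epcam, chr1:118627695-118627944 (plus strand) for Tfcp2l1, chr12:73546396-73546645 (minus strand) for Tmem30b, chr17:85688255-85688504 (minus strand) for Six2 and chr12:37108290-37108539 (plus strand) for Meox2, all in GRCm38.p6.
Cldn4: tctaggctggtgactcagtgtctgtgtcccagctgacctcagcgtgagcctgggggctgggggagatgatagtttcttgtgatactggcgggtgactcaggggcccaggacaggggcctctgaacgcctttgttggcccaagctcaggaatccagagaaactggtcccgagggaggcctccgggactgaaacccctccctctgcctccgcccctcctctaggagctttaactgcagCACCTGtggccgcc
Krt8: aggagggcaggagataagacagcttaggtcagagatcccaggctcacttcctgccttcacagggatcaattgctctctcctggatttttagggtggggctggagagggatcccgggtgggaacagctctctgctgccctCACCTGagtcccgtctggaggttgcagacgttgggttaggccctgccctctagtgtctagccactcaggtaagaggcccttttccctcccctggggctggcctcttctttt
Epcam: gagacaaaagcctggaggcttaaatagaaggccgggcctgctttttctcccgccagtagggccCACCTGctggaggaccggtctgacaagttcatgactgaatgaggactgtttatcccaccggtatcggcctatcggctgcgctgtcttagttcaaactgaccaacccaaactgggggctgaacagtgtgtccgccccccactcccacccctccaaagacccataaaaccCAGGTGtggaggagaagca
Tfcp2l1: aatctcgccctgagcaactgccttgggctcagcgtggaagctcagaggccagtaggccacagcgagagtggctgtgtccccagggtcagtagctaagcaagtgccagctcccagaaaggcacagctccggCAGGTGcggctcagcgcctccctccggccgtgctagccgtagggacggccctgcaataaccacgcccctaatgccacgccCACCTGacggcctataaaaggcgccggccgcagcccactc
Tmem30b: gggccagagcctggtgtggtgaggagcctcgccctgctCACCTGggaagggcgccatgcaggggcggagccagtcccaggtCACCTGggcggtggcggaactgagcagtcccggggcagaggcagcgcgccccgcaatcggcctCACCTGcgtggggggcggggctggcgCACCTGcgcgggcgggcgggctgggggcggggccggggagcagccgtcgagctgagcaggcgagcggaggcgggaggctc
Six2: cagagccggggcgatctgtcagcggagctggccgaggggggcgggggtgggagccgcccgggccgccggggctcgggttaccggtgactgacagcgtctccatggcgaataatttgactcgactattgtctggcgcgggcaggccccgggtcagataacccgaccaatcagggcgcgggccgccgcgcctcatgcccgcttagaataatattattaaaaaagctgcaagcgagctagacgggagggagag
Meox2: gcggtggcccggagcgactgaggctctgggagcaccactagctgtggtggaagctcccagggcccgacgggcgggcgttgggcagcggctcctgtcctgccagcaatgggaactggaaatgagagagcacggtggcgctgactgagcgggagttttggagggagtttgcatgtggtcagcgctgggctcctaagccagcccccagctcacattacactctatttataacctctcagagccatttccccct
The match lies 14 to 9 bases before the start in Cldn4 and 111 to 106 bases before it in Krt8. Epcam and Tfcp2l1 hold 2 matches each, and Tmem30b, a gene of a flippase subunit that was 4.57 ± 0.18 higher in stalk, holds 4. Six2 and Meox2, described below among the progenitor genes, hold 0.

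**Figure D3:**
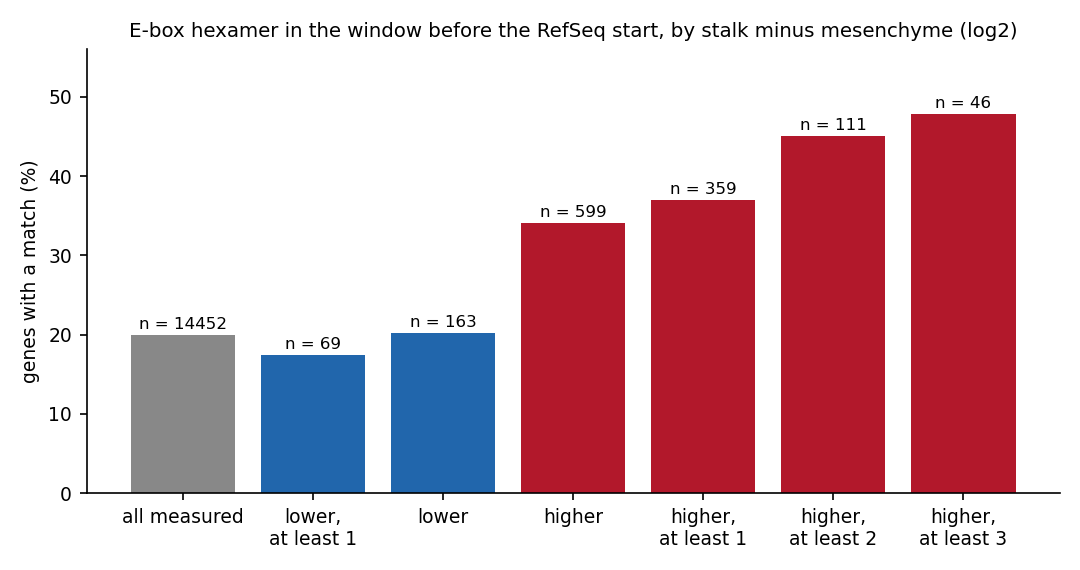
Share of genes (%, vertical axis) with the E-box hexamer in the 250 bases before a RefSeq start, for all measured genes (grey) and for genes called lower (blue) or higher (red) in stalk, also by the size of the difference in log2 units; n is the number of genes with an entry. The share is 19.9% for all measured genes and 47.8% for the 46 genes that are higher by at least 3.

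Genes of the stalk, the tip and the collecting duct were split between called and uncalled members. Of 14 genes of stalk and urothelium 4 were higher and 0 lower, and the median was -0.05. Calb1, a calcium-binding protein of the whole bud, read 6.26 and 5.56 in mesenchyme and 12.54 and 12.53 in stalk, a difference of 6.62 ± 0.22 (adjusted p = 5.97e-06). Wnt9b, the bud ligand that induces nephrons, read 5.18 and 5.90 against 8.26 and 8.35. Shh, the hedgehog ligand of the ureter epithelium, read 6.03 and 5.99 against 8.83 and 8.69. Wnt7b, the stalk ligand that acts on the surrounding stroma, was 1.07 ± 0.14 higher (adjusted p = 0.00431). These 4 genes separated the tissues without overlap, as every called gene did. Calb1 was 3.79, Wnt9b 1.64 and Shh 1.69 higher with the median over probe sets. The other 10 members, among them uroplakins, the basal keratins Krt5 and Krt14 and the bud gene Hoxb7, had differences between -0.35 and 0.08. Hoxb7 was dim in all 6 tissue arrays (3.86 to 4.24).

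Of 12 genes of the bud tip, 4 were higher in stalk than in mesenchyme and 1 lower, with a median of 0.60; with the replicate block 7 were higher. Ret, the Gdnf receptor, read 4.56 and 5.0 in mesenchyme and 8.89 and 8.52 in stalk, a difference of 3.92 ± 0.21 (adjusted p = 5.09e-05), while the tip arrays stood at 11.07 and 10.70. Sox9, a factor of the branching tip, read 7.93 and 7.38 in mesenchyme and 9.52 and 9.41 in stalk. Slco4c1, an organic anion transporter, was 2.14 ± 0.27 higher, from mesenchyme values of 3.43 and 3.46, below the lower quartile of these arrays. Sox9 and Slco4c1 were 1.15 and 1.14 higher with the median over probe sets. Etv4, a target of Ret and FGF signalling, was lower instead, at 8.11 and 8.10 in mesenchyme and 7.53 and 7.46 in stalk. This call (-0.61; adjusted p = 0.0339) was lost when any of the 4 arrays was left out (adjusted p = 0.172 and 0.182 without mesenchyme replicates 1 and 2, 0.259 and 0.331 without stalk replicates 1 and 2; 0.0068 to 0.331 over 13 alternatives). Wnt11, a tip ligand, differed by 0.73 and was not called (adjusted p = 0.126, 0.0354 with the block and 0.011 to 0.446 over 13 alternatives).

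Of 17 transport genes of the collecting duct, 4 were higher and 1 lower, with a median of 0.01. The sodium channel subunits Scnn1g and Scnn1b were 2.72 ± 0.19 and 1.76 ± 0.21 higher, and the sodium pump subunit Atp1b1 read 7.68 and 7.82 in mesenchyme and 9.88 and 9.86 in stalk. Fxyd4, a regulator of that pump, was 1.70 ± 0.15 higher. The members not called, which include the water channels Aqp2, Aqp3 and Aqp4, lay between -0.31 and 0.56. Aqp3 and Aqp4 each have a further probe set that was called higher (0.73 and 1.63). The lower member, the anion exchanger Slc4a1, is also a red cell gene (-0.98; adjusted p = 0.037, and 0.0129 with the block). It was called in 6 of 13 alternatives. The call was lost with the median over probe sets (adjusted p = 0.141) and with the probe set brightest over the 4 arrays (adjusted p = 0.122). It was also lost on the 4 arrays alone and without mesenchyme replicate 1 or stalk replicate 1.

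Genes of the nephron progenitors were lower in stalk. Of 17 measured, 12 were lower and 0 higher, with a median of -1.64. Six2, the factor that keeps progenitors undifferentiated, read 9.88 and 9.84 in mesenchyme and 7.58 and 7.63 in stalk, a difference of -2.26 ± 0.12 (adjusted p = 4.78e-05). Meox1 was among the lowest of all genes (-2.87 ± 0.17), with 10.31 and 9.88 against 7.13 and 7.33. Eya1, a partner of Six2 and its relatives, read 11.17 and 11.23 against 9.09 and 8.98. Gdnf itself read 8.91 and 8.71 in mesenchyme and 7.08 and 7.16 in stalk, a difference of -1.68 ± 0.14 (adjusted p = 0.00042). The groups stood apart for each of these genes, yet the stalk arrays stayed above the lower quartile, whereas the mesenchyme arrays lay below it for Cdh1. Crym, Meox2 and Uncx had differences of -2.29, -2.52 and -1.91. Cited1, another progenitor gene, differed by -0.77 (adjusted p = 0.0534, 0.00404 with the block and 0.00404 to 0.264 over 13 alternatives), and Hoxd11 by -0.69 (adjusted p = 0.143, 0.00293 with the block and 0.00293 to 0.683 over 13 alternatives). The intensities of the list summed to 13767 and 12182 in mesenchyme, 4743 and 4397 in stalk and 1675 and 1302 in tip. What share of the stalk signal came from progenitors beside the stalk was not tested.

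Early nephron genes did not follow the progenitor genes. Of 14, 4 were higher in stalk and 0 lower. The means of these 4 were higher still in tip. Tip means were 10.89 for Pou3f3, 10.07 for Jag1, 9.22 for Lhx1 and 11.35 for Ccnd1. Their stalk means were 9.49, 9.53, 7.76 and 11.09. Whether early nephron cells had a part in these stalk levels was not tested. Pou3f3, a POU factor of the distal nephron, read 5.25 and 5.08 in mesenchyme and 9.55 and 9.42 in stalk, a difference of 4.32, or 2.59 with the median over its probe sets. Jag1, a Notch ligand, was 1.48 ± 0.15 higher. Lhx1, given above, is the third such gene, and it also acts in the bud. The fourth, the cyclin gene Ccnd1, read 10.22 and 10.21 against 11.14 and 11.04. Its call (adjusted p = 0.00771) was lost without mesenchyme replicate 2 (0.0527), stalk replicate 1 (0.0994) or stalk replicate 2 (0.0561), with adjusted p from 4.68e-07 to 0.0994 over 13 alternatives. Wnt4 and Fgf8, signals of the forming nephron, differed by -0.07 and -0.66 and were not called (adjusted p = 0.901 and 0.109; for Fgf8 0.007 with the block and 0.007 to 0.498 over 12 alternatives).

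Genes of the mesenchyme around the ureter were higher in stalk, against the direction of the progenitor genes. Of 14 measured, 11 were higher and 0 lower, with a median of 1.31; without stalk replicate 1 the count was 7. The hedgehog targets, Wnt5a and Bmp4 of this list are described with their pathways. Car3, a carbonic anhydrase, read 8.56 and 8.41 in mesenchyme and 11.53 and 11.54 in stalk, a difference of 3.05 ± 0.18 (adjusted p = 7.51e-05), and 8.07 and 7.57 in tip. It was 1.76 higher with the median over its probe sets. Tshz3, a factor of ureteric smooth muscle differentiation, read 7.94 and 7.43 in mesenchyme, 9.43 and 9.30 in stalk and 5.49 and 5.44 in tip. Tbx18, which specifies the ureteric mesenchyme, read 9.77 and 9.51 in mesenchyme, 11.16 and 10.93 in stalk and 6.43 and 5.48 in tip. For these genes stalk was the highest of the 3 tissues and tip the lowest. The Tbx18 difference of 1.41 ± 0.29 (adjusted p = 0.0306) lost its call when an array was left out (adjusted p = 0.0644 and 0.138 without mesenchyme replicates 1 and 2, 0.119 and 0.0523 without stalk replicates 1 and 2) and its adjusted p ranged from 0.000127 to 0.138 over 13 alternatives. Not all members had this order. The T-box genes Tbx2 and Tbx3 were 1.92 and 2.98 higher in stalk than in mesenchyme. Their tip means of 9.72 and 9.88 lay above their stalk means of 8.72 and 9.64. The tip mean of Wnt5a, 6.91, lay between those of mesenchyme (6.15) and stalk (7.35). With the median over its 5 probe sets, Tbx3 differed by 0.44 (adjusted p = 0.0968, and 5.1e-11 to 0.0968 over 13 alternatives). The intensities of the list summed to 13399 and 13087 in mesenchyme, 22776 and 21609 in stalk and 8738 and 7238 in tip. Whether the stalk samples held such mesenchyme was not tested beyond these levels.

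The renal stroma was divided. Of 17 stromal genes 1 was higher in stalk and 4 were lower, with a median of -0.16, and 2 were lower without mesenchyme replicate 1, without stalk replicate 1 or without stalk replicate 2. With the block 2 were higher and 6 lower. Foxd1, the factor of cortical stroma, read 11.12 and 11.06 in mesenchyme and 9.94 and 9.88 in stalk, a difference of -1.18 ± 0.17 (adjusted p = 0.00722), and stood at 6.63 and 6.14 in tip. Ntn1, a netrin, read 8.27 and 8.11 against 6.08 and 5.95 (-2.17, or -1.27 with the median over its probe sets). Smoc2, a matrix protein gene, was the higher member (1.66 ± 0.17). The other 12 members were not called. The platelet-derived growth factor receptor Pdgfra, chosen after its values were seen, is an example with 10.88 and 10.91 in mesenchyme and 11.10 and 11.08 in stalk, beside 7.92 and 7.26 in tip. The list summed to 21590 and 20963 in mesenchyme, 18403 and 17900 in stalk and 3613 and 2952 in tip.

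**Figure D4:**
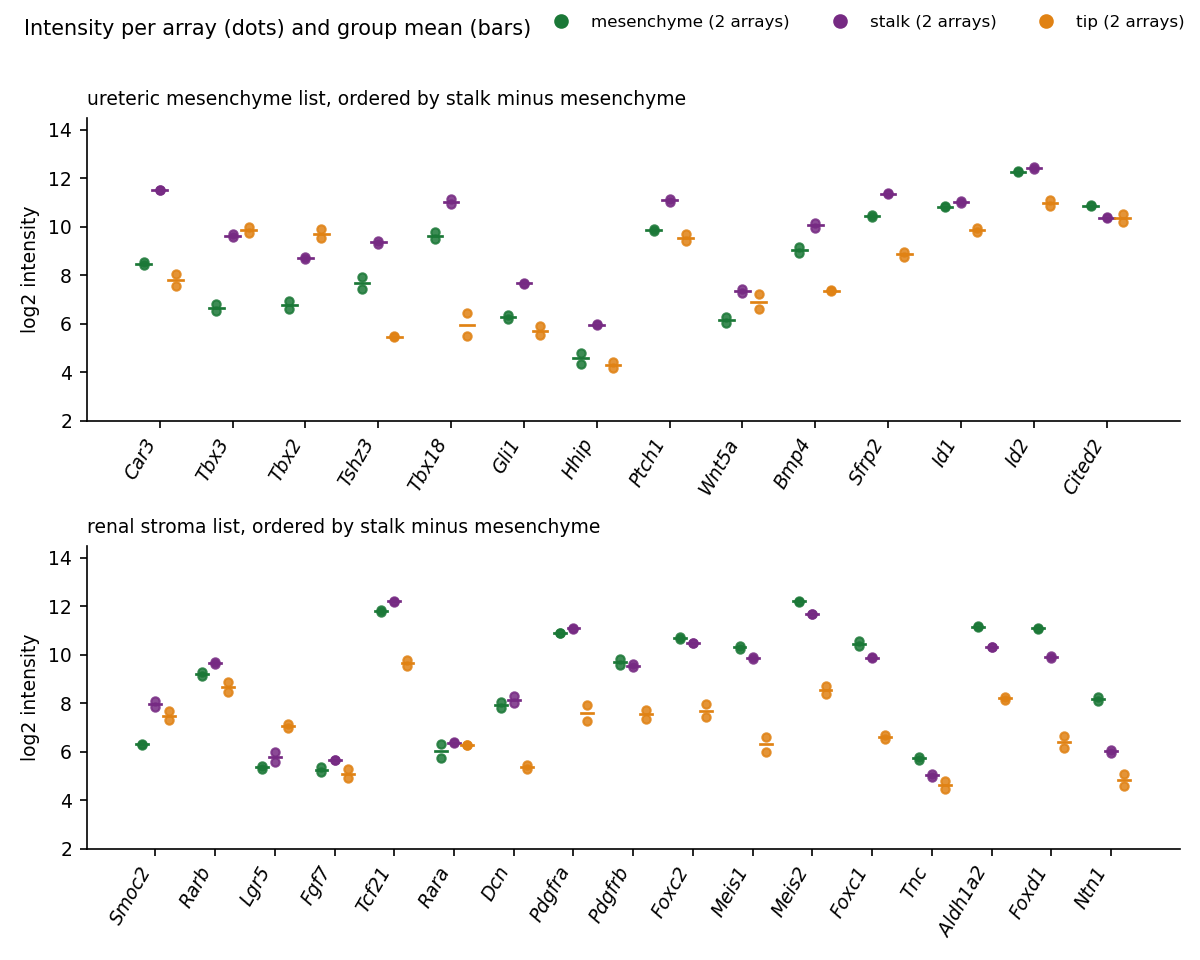
Log2 intensity (vertical axis) of each gene of the ureteric mesenchyme list (upper panel) and the renal stroma list (lower panel) in each mesenchyme, stalk and tip array (dots, 2 per group), with group means as bars. Genes are ordered by stalk minus mesenchyme: Car3 leads the upper panel at 3.05, and Ntn1 ends the lower panel at -2.17.

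The mesenchymal state was mixed in stalk. Of 14 genes 2 were higher and 3 lower, and 0 were higher when any of the 4 arrays was left out. Vim, the vimentin gene, read 12.46 and 12.23 in mesenchyme and 12.34 and 12.29 in stalk, a difference of -0.03 ± 0.14 (adjusted p = 0.969), and 10.35 and 10.26 in tip. Cdh2, the N-cadherin gene, was lower in stalk (-1.27 ± 0.19; adjusted p = 0.00724), with 10.77 and 10.73 in mesenchyme against 9.51 and 9.44. Fap, a surface protease, had a difference of -1.88. Among the E-box repressors the calls differed in direction. Zeb1 read 10.03 in both mesenchyme arrays and 8.96 and 9.09 in stalk (-1.01 ± 0.12; adjusted p = 0.00264), though with the median over its 4 probe sets the difference was -0.28 (adjusted p = 0.691, and 4.86e-05 to 0.691 over 13 alternatives). Zeb2 and Snai1 were higher in stalk, by 1.01 and 0.74, in calls that were lost with any of the 4 arrays left out (adjusted p = 0.0649 to 0.202 for Zeb2 and 0.0671 to 0.292 for Snai1; 0.00204 to 0.202 and 0.00747 to 0.292 over 13 alternatives). The list summed to 20338 and 18932 in mesenchyme, 18339 and 17742 in stalk and 4156 and 3512 in tip.

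A part of the matrix genes was higher in stalk. Of 25 genes of the fibrillar and interstitial matrix 7 were higher and 1 lower, with a median of 0.46; when a stalk or mesenchyme array was left out, 3 or 4 were higher and 0 lower. Col14a1, a fibril-associated collagen, read 6.83 and 6.74 in mesenchyme and 8.41 and 8.54 in stalk (1.70 ± 0.13). Postn, the periostin gene, read 9.47 and 9.20 against 10.80 and 10.71, and Lum, the lumican gene, was 1.39 ± 0.16 higher. For Postn and Lum the tip arrays stood far lower, at 6.31 and 6.01 and at 4.70 and 4.74. The large fibrillar collagens Col1a1 and Col3a1, chosen after their values were seen, differed by 0.25 ± 0.20 and 0.12 ± 0.14.

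Of 26 genes of the basement membrane and its integrins, 11 were higher in stalk and 0 lower, with a median of 0.61; without stalk replicate 1 the count was 6. Npnt, which encodes nephronectin, the bud ligand of an integrin on the mesenchyme, read 6.30 and 6.12 in mesenchyme and 9.72 and 9.61 in stalk, a difference of 3.46 ± 0.14 (adjusted p = 1.2e-05). Its 5 probe sets disagreed, and their median differed by 0.44 (adjusted p = 0.257, and 1.27e-12 to 0.257 over 13 alternatives). Frem2, a protein of the embryonic basement membrane, read 6.66 and 6.68 against 9.52 and 9.38. The laminin chains Lama1 and Lama5 were 1.83 ± 0.13 and 1.31 ± 0.16 higher, and Col18a1, a basement membrane collagen, 1.51 ± 0.13 higher. Itga8, which encodes the integrin chain that binds nephronectin, read 10.05 and 9.75 in mesenchyme and 9.58 and 9.41 in stalk and was not called (adjusted p = 0.508).

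**Figure D5:**
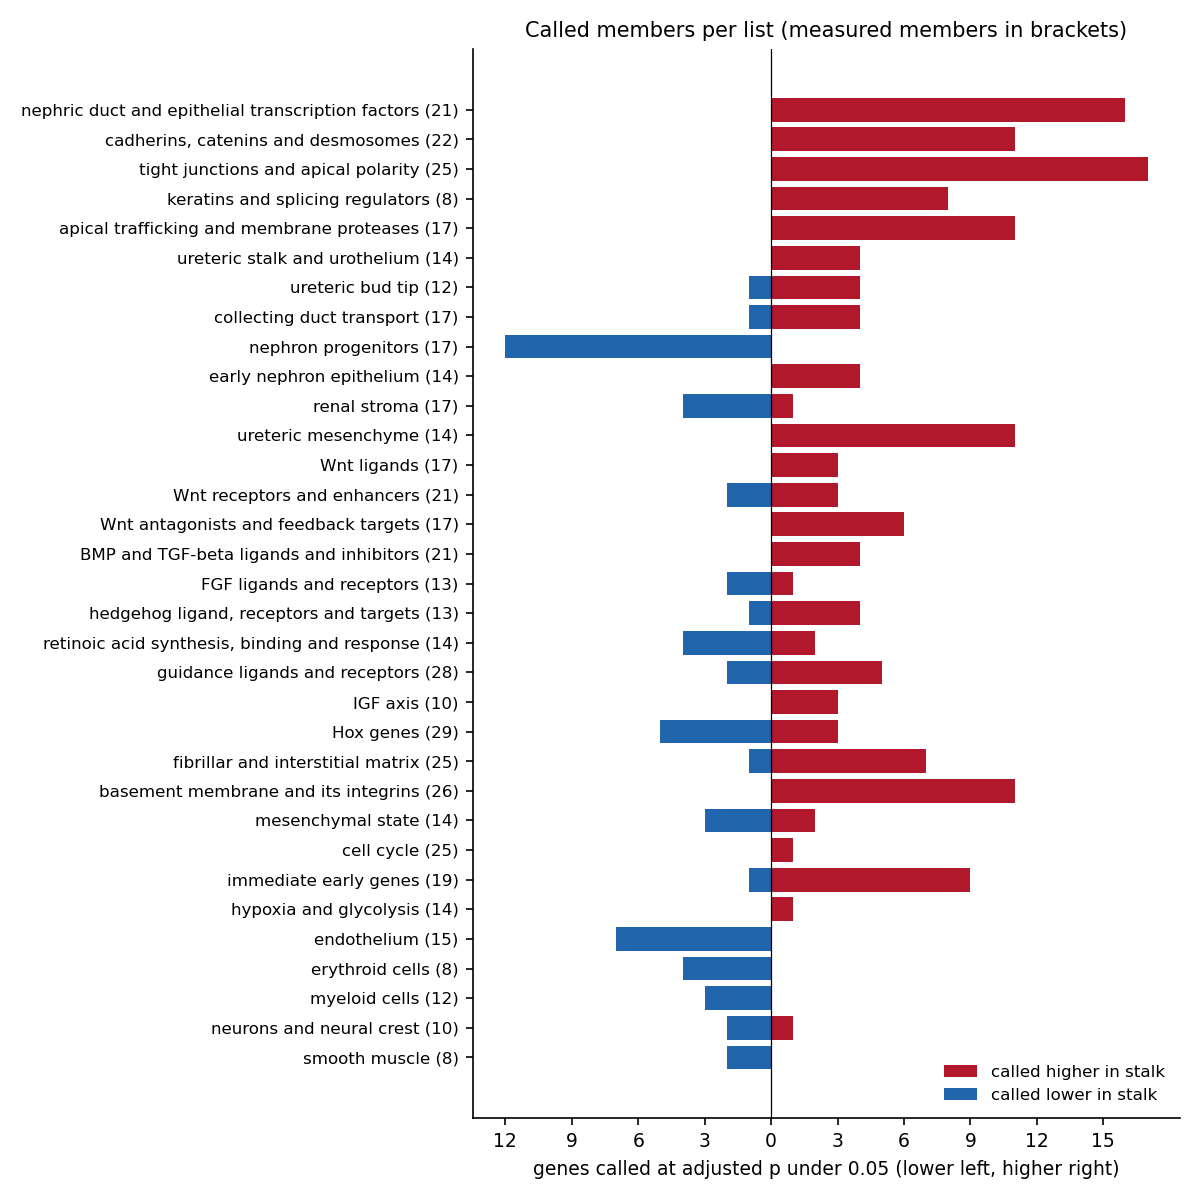
Number of genes called higher in stalk (red, to the right) and lower (blue, to the left) at an adjusted p under 0.05 in each of 33 gene lists, with the number of measured members in brackets. The longest red bars belong to tight junctions and apical polarity (17) and to transcription factors (16), and the longest blue bar to nephron progenitors (12).

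Wnt signalling was described by role. Of 17 ligands 3 were higher and 0 lower: Wnt9b and Wnt7b, given above, and Wnt5a, a ligand of non-canonical signalling, which was 1.20 ± 0.21 higher (adjusted p = 0.0143). Wnt5a was not called without mesenchyme replicate 2 (0.079) or stalk replicate 1 (0.0738; 0.000494 to 0.079 over 13 alternatives). In all, 2 ligands were higher without stalk replicate 1 and 5 with the block. Of 21 receptors and enhancers 3 were higher and 2 lower, or 8 and 5 with the block and 6 and 3 on the 4 arrays alone. The higher members were led by the frizzled receptors Fzd6, at 6.48 and 6.32 in mesenchyme and 8.46 in both stalk arrays, and Fzd5 (1.48 ± 0.16). They were 0.99 and 0.71 higher with the median over probe sets. The lower members were R-spondins, secreted enhancers of Wnt signals. Rspo1 read 8.99 and 8.56 in mesenchyme and 6.57 and 6.47 in stalk (-2.26 ± 0.19; adjusted p = 0.000403), and Rspo3 read 8.91 and 8.84 against 7.08 and 7.05 (-1.81 ± 0.13; adjusted p = 0.00019). For both R-spondins the tip arrays were lower still, between 3.93 and 4.78. Rspo3 differed by -1.05 with the median over its probe sets.

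Of 17 Wnt antagonists and feedback targets 6 were higher and 0 lower, with a median of 0.54; without stalk replicate 1 the count was 3, without mesenchyme replicate 2 it was 4, and with the block 9 were higher and 1 lower. Dkk2, a secreted Wnt antagonist, read 5.24 and 4.91 in mesenchyme, 8.06 and 7.80 in stalk and 3.76 in both tip arrays (stalk minus mesenchyme 2.85 ± 0.16; adjusted p = 6.15e-05). Its relative Dkk3 was 1.64 ± 0.15 higher. Rnf43, a feedback inhibitor induced by canonical signals, read 4.24 and 4.32 against 5.74 and 6.09, and its relative Znrf3 differed by 0.71 (adjusted p = 0.068, 0.00412 with the block and 0.00412 to 0.459 over 13 alternatives). The general target Axin2, chosen after its values were seen, differed by 0.54 ± 0.14 (adjusted p = 0.0811, 0.0259 with the block and 0.0259 to 0.577 over 13 alternatives).

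Ligand and targets of the hedgehog pathway were higher together. Of 13 genes 4 were higher and 1 lower, with a median of 0.24. Beside Shh, these were 3 genes that the pathway switches on. Gli1 read 6.19 and 6.37 in mesenchyme, 7.70 and 7.66 in stalk and 5.55 and 5.89 in tip (stalk minus mesenchyme 1.40 ± 0.15; adjusted p = 0.00156). Hhip, which binds the ligand, read 4.36 and 4.78, 5.94 and 6.0, and 4.16 and 4.42 in the same order, a stalk minus mesenchyme difference of 1.40, or 0.82 with the median over its probe sets. Ptch1, the receptor and a target, was 1.22 ± 0.14 higher, or 0.56 (adjusted p = 0.327, and 1.21e-07 to 0.327 over 13 alternatives) with the median over its 3 probe sets. The 3 targets had their highest means in stalk, while Shh in tip (7.85 and 7.72) lay between mesenchyme and stalk. Gas1, a co-receptor, was the lower member at 12.58 and 12.61 against 11.73 and 11.61 (-0.93 ± 0.12; adjusted p = 0.00408), a call lost without stalk replicate 2 (0.0631; 7.47e-09 to 0.0631 over 13 alternatives). The signal transducer Smo and the factors Gli2 and Gli3 had differences of 0.24, 0.31 and 0.06 and were not called.

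Retinoic acid genes moved in both directions. Of 14 genes 2 were higher and 4 lower; 2 were lower without mesenchyme replicate 1, stalk replicate 1 or stalk replicate 2, and with the block 4 were higher and 4 lower. The synthesis enzyme Aldh1a1 read 4.0 and 3.54 in mesenchyme, below the lower quartile of these arrays, and 7.78 and 7.60 in stalk. Its difference was 3.92 ± 0.19 (adjusted p = 3.13e-05). Aldh1a3 was 1.20 ± 0.18 higher, or 2.15 with the median over its probe sets. Their relative Aldh1a2, the enzyme of the stroma, read 11.17 and 11.15 in mesenchyme and 10.34 in both stalk arrays (-0.83; adjusted p = 0.00659, but 0.0503, 0.0869 and 0.081 without mesenchyme replicate 1, stalk replicate 1 and stalk replicate 2; 9.21e-06 to 0.0869 over 13 alternatives). Rdh10, which makes the precursor, differed by -0.99 ± 0.13. The binding protein Crabp1 read 10.43 and 10.25 against 8.45 in both stalk arrays (-1.89 ± 0.18; adjusted p = 0.000745). The receptors Rara, Rarb and Rarg had differences of 0.35, 0.47 and 0.15 and were not called (Rarb adjusted p = 0.236, 0.0384 with the block and 0.0384 to 0.95 over 13 alternatives).

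Of 13 FGF ligands and receptors 1 was higher and 2 lower, beside 4.3% and 1.24% of all genes. Fgfr2, the receptor of the bud, read 9.69 and 9.61 in mesenchyme, with a stalk mean of 11.01 (1.36 ± 0.12; adjusted p = 0.000539). Fgf20, a ligand of the nephron progenitors, read 6.04 and 5.62 against 4.59 and 4.53 (-1.27 ± 0.18; adjusted p = 0.0053). Fgfr1 was lower, with 9.58 and 9.38 in mesenchyme against 8.74 and 8.64, a call (adjusted p = 0.0245) that was lost when an array was left out (0.0613 to 0.192; 0.00094 to 0.192 over 13 alternatives). Of 21 BMP and TGF-beta genes 4 were higher and 0 lower, or 6 and 2 with the block and 2 and 0 without stalk replicate 1. Id4, a target of BMP signals, was 1.52 ± 0.16 higher, and Bambi, a decoy receptor, 1.14 ± 0.17 higher. Bmp4, which acts in the ureteric mesenchyme, read 9.15 and 8.92 in mesenchyme, 10.17 and 9.97 in stalk and 7.40 and 7.34 in tip (1.04 ± 0.14; adjusted p = 0.00512, but 0.059 without stalk replicate 1; 3.71e-05 to 0.059 over 13 alternatives). Of 10 IGF genes 3 were higher. Igfbp2, an IGF binding protein, read 9.91 and 9.75 against 10.93 and 10.91, and Igfbp7 was 1.38 ± 0.14 higher by its brightest probe set but differed by -0.06 (adjusted p = 0.944, and 2.9e-05 to 0.944 over 13 alternatives) with the median over its 3 probe sets.

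Among guidance molecules the ligand genes Sema3c and Efnb2 were higher in stalk and Ntn1 was lower. Of 28 ligands and receptors 5 were higher and 2 lower; 3 were higher without mesenchyme replicate 1 and 2 without any other of the 4 arrays, and 8 were with the block. Sema3c, a semaphorin, read 8.98 and 8.79 in mesenchyme and 11.12 and 10.92 in stalk (2.13 ± 0.15; adjusted p = 0.000166). Efnb2, the ephrin-B2 gene, read 8.69 and 8.34 against 10.57 and 10.42 (1.98 ± 0.15; adjusted p = 0.000268). The lower genes were Ntn1, given above, and Robo2, a Slit receptor that limits Gdnf to its proper place, at 5.13 and 4.46 against 3.83 and 3.53. Robo2 (-1.12 ± 0.22; adjusted p = 0.0287) was not called without mesenchyme replicate 1 (0.0951) or stalk replicate 2 (0.15; 0.0012 to 0.15 over 12 alternatives), and its stalk values lie below the lower quartile of the arrays.

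Calls among the Hox genes fell on both sides. Of 29 measured, 3 were higher and 5 lower, with a median of -0.49. The lower count moved with the fit: it was 15 with the block, 11 on the 4 arrays alone, 2 without mesenchyme replicate 1, mesenchyme replicate 2 or stalk replicate 1, and 0 without stalk replicate 2. Of the higher genes 1 was called when mesenchyme replicate 2 or stalk replicate 1 was dropped. Hoxd8 read 8.86 and 8.88 in mesenchyme and 10.26 and 10.25 in stalk (1.38 ± 0.14; adjusted p = 0.000962). Hoxd3 was 1.06 ± 0.18 higher (adjusted p = 0.0137), a call lost without mesenchyme replicate 2 (0.0838) or stalk replicate 1 (0.0898; 0.000427 to 0.0898 over 13 alternatives). The lower members included Hoxc4 (-0.92 ± 0.13), Hoxc8 (-1.27 ± 0.21) and Hoxc10 (-1.17 ± 0.24). Hoxc8 read 8.63 and 8.34 in mesenchyme and 7.30 and 7.12 in stalk. Without stalk replicate 2 these 3 were not called (adjusted p = 0.0673, 0.0541 and 0.131), and over 13 alternatives their adjusted p ranged from 0.000909 to 0.0673, from 0.000229 to 0.0576 and from 0.000339 to 0.131. Hoxc8 was also not called without mesenchyme replicate 1 (0.0576), and Hoxc10 without any of the 4 arrays. The other called members, which lie outside the naming rule, were Hoxd13 (0.67), Hoxa9 (-0.84) and Hoxc6 (-0.85). Each was called in 7 to 9 of its 12 or 13 alternatives, which count the fit on the 4 arrays alone more than once. Hoxd11, given among the progenitor genes, was lower with the block. Hoxb1, which was in no list, was among the lowest genes of all, with 7.08 in both mesenchyme arrays and 4.82 and 5.05 in stalk (-2.15 ± 0.18).

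Immediate early genes, which respond to stimulation or handling of a tissue, were higher in stalk in part. Of 19 genes 9 were higher and 1 lower, with a median of 0.59. With 1 array left out, 3 were higher (dropping mesenchyme replicate 1 or stalk replicate 2) or 2 were (dropping either of the other two), and 0 were lower. Fosl2, a Fos relative, read 7.35 and 7.10 in mesenchyme and 10.01 and 9.98 in stalk (2.77 ± 0.16; adjusted p = 7.58e-05), and its 2 probe sets differed by 0.02 and 2.77 (median 1.39). Klf6 was 1.42 ± 0.15 higher. How the dissection of either tissue bears on these genes was not tested. Of 25 cell cycle genes 1 was higher and 0 lower, which is near the 4.3% and 1.24% of all genes. The higher gene was Cdkn1a, a cyclin-dependent kinase inhibitor, at 6.70 and 6.82 in mesenchyme and 8.62 and 8.65 in stalk (1.88 ± 0.13; adjusted p = 0.000163), or 1.23 higher with the median over its probe sets, and the other 24 members lay between -0.33 and 0.38. Of 14 genes of hypoxia and glycolysis 1 was higher, which is also near the 4.3% of all genes. With the block 3 were higher, beside 1231 of all 18193 genes. The gene called in the main fit was the hexokinase gene Hk1 (0.77; adjusted p = 0.0112). It was not called without mesenchyme replicate 2 (0.0972), stalk replicate 1 (0.142) or stalk replicate 2 (0.102; 0.000632 to 0.142 over 13 alternatives).

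Markers of vessels, blood and macrophages were called lower in stalk, or not called, more often than higher. Of 15 endothelial genes 7 were lower and 0 higher, with a median of -0.60, and each of the 15 had a negative difference. Ramp2, a receptor component of endothelium, read 9.40 and 9.35 in mesenchyme and 8.49 and 8.33 in stalk (-0.97 ± 0.13; adjusted p = 0.00375, and 0.0562 without stalk replicate 2; 0.00016 to 0.0562 over 13 alternatives). The count was 12 with the block, and 1, 1, 1 and 2 without mesenchyme replicates 1 and 2 and stalk replicates 1 and 2. The intensities of the list summed to 4944 and 4558 in mesenchyme, 3058 and 3045 in stalk and 1370 and 1316 in tip. Of 8 red cell genes 4 were lower, led by the embryonic globin Hbb-bh1 at 11.84 and 11.81 against 10.58 and 10.59 (-1.24 ± 0.13; adjusted p = 0.0014). That count was 2 without mesenchyme replicate 1, 1 without stalk replicate 1 and 2 without stalk replicate 2. The list summed to 24332 and 23880 in mesenchyme and 18195 and 17906 in stalk. Of 12 myeloid genes 3 were lower and 0 higher, with C1qa, a complement gene of macrophages, at 7.31 and 7.0 against 5.87 and 6.02; 1 was lower without mesenchyme replicate 1 or either stalk array, and 5 were lower and 1 higher with the block. The gene higher with the block was Ptprc, which read 5.03 and 4.38 in mesenchyme and 5.57 and 5.91 in stalk (1.03; adjusted p = 0.112, and 0.0237 with the block). The myeloid list summed to 1323 and 1163 in mesenchyme and 791 and 805 in stalk.

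Nerve and muscle genes were mostly lower or not called. The neural list has 10 members, of which 2 were lower and 1 higher, or 2 and 0 when a stalk or mesenchyme array was left out. Elavl4, a neuronal RNA-binding protein, read 6.49 and 6.17 in mesenchyme and 4.45 and 4.74 in stalk (-1.74 ± 0.16; adjusted p = 0.000751), and Stmn2, a neuronal stathmin, was at 7.76 and 7.47 against 6.27 and 5.88. The higher member was Isl1, at 6.46 and 6.50 in mesenchyme and 7.22 and 7.09 in stalk (0.67 ± 0.13; adjusted p = 0.026). It was 1.10 higher with the probe set brightest over the 4 arrays. Dcx, the doublecortin gene of young neurons, was in no list and read 7.10 and 6.92 against 4.80 and 4.90 (-2.16 ± 0.13, or -1.14 with the median over its probe sets). The glial precursor gene Sox10, chosen after its values were seen, differed by -0.33 and was not called (adjusted p = 0.315). The smooth muscle list has 8 members, of which 2 were lower and 0 higher, or 1 lower with any of the 4 arrays left out, with Des, the desmin gene, at 8.04 and 7.94 against 6.87 and 6.93 (-1.09 ± 0.12; adjusted p = 0.0017). The median over the probe sets of Des differed by -0.41 (adjusted p = 0.168, and 0.00025 to 0.168 over 13 alternatives). The muscle genes Actn3 and Trim63, in no list, were among the 20 lowest genes, with differences of -2.34 ± 0.18 and -2.13 ± 0.18. Actc1, the cardiac actin gene, also in no list, went the other way and was 2.62 higher in stalk. The part that blood, vessels, nerves and muscle around the kidney had in the lower side of the comparison was not tested.

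Genes that belonged to no list filled part of both ends. Among the 20 highest were Ripk4 and Kdf1, which act in the differentiation of stratified epithelia, Dcdc2a, a doublecortin-domain gene of cilia, and Sgpp2, a sphingosine phosphatase gene. Ripk4 read 3.50 and 3.60 in mesenchyme and 8.45 and 8.27 in stalk (4.81 ± 0.16; adjusted p = 5.97e-06). The mesenchyme values of Ripk4 and of Kdf1 (3.94 and 3.52) lie below the lower quartile of their arrays. Kdf1, Dcdc2a and Sgpp2 were 4.39 ± 0.17, 4.48 ± 0.19 and 4.49 ± 0.17 higher. With the median over probe sets Kdf1 was 2.77 and Dcdc2a 2.32 higher, and with the probe set brightest over the 4 arrays Ripk4 was 1.79 and Kdf1 1.16 higher. At the other end stood Arg1, the arginase gene, with 9.17 and 8.78 in mesenchyme, 6.29 and 6.03 in stalk and 4.28 and 4.03 in tip (-2.81 ± 0.18; adjusted p = 0.000115). Snap91, a clathrin adaptor of synapses, Ebf2, a factor of mesenchymal and neuronal precursors, and Hpgd, which degrades prostaglandins, were lower with differences of -2.06 ± 0.16, -2.05 ± 0.23 and -1.87 ± 0.21, or -1.11, -1.0 and -1.21 with the median over probe sets.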

How the data were processed

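Total RNA of microdissected mouse embryonic kidney tissue (1 ug per array) was hybridised to Affymetrix mouse expression arrays, with 2 arrays for each of the 3 tissues (mesenchyme, stalk, tip) and 1 for a cell line. The authors deposited linear intensities from robust multichip analysis (RMA) over all 7 arrays, per the labels and the submitters' processing notes; its version is not given in the sources used here. The values run from 5.08 to 19587 and carry no detection calls. According to the series' design text, the 6 tissue arrays had been published before.

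Here log2 was taken and 64 control probe sets were left out. Of 45101 probe sets 34945 list 1 gene by the platform annotation, 932 list several and 9160 list none. Each of 18193 genes was represented by its brightest probe set over all 7 arrays. The 6 tissue arrays were fitted with limma 3.58.1 (R 4.3.3; 3 residual degrees of freedom), and the p-value of stalk minus mesenchyme was adjusted over all genes (Benjamini-Hochberg). The scripts were tested on simulated data. The labels call the arrays biological replicates; whether they came from separate litters is not stated.

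Same-numbered arrays deviated together. Across all non-control probe sets, replicate differences of mesenchyme correlated at 0.39 with those of stalk and 0.57 with those of tip. Those of stalk correlated with those of tip at 0.43. The main fit has no term for the replicate number, so its SEs and adjusted p-values do not account for such pairs. Blocking on the number was an alternative. Pairing is not stated in the labels. Differences of tip from mesenchyme share the mesenchyme arrays with the comparison, so tip values stand beside the others as levels only.

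The genes described and the 33 gene lists were chosen with earlier results of these data known. Named were the 20 highest and 20 lowest called genes whose arrays do not overlap, up to 5 called and 2 uncalled members per list by size of difference, and 13 set genes, of which 12 were measured; genes without a known name were passed over. Krt5, Krt14, Hoxb7, the aquaporins, Wnt4, Itga8, Smo, Gli3, Rara and Rarg were added after their values were seen. Promoters are the 250 bases before RefSeq starts (GRCm38.p6), matched by gene symbol alone. Genes without an entry under their symbol in the array annotation are left out of the shares. Figures were drawn with matplotlib 3.10.9.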

Additional observations from a re-analysis of the deposited data

Results flagged for a closer look

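Among the 9160 probe sets that list no gene in the annotation, which the report does not use, 33 were higher and 12 lower in stalk than in mesenchyme by limma's adjusted p. They stand out as signal outside the genes compared, and they were not followed further.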

How the results depend on the processing

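With the replicate block, 1231 genes were higher and 577 lower, against 782 and 225, and all of the latter were still called. With a trended, robust variance 354 were lower. With 1 array left out, stalk, mesenchyme or tip, the higher count ran from 427 to 922 and the lower count from 92 to 316. The other alternatives kept the counts within 1.5 times: the 4 arrays alone (922 and 316), arrays centred on their medians (641 and 286), the median over probe sets (651 and 208), the brightest probe set over the 4 arrays (759 and 226), no dim genes (752 and 203) and every probe set tested on its own. Dropping either tip array is the same fit as the 4 arrays alone, as the tip array that remains adds nothing to the estimate of the spread.

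Of 213 genes under the naming rule, 173 kept their side of the threshold with the block and 40 were called with it only. Leaving out a mesenchyme or stalk array lost 25 to 36 calls. With the median over probe sets 13 calls were lost and 1 direction was reversed, that of Igfbp7 (-0.06, against 1.38). Among the genes named in the report, the block changed no call other than those given beside their values there. The share of genes with the E-box was 31.1% over genes with 1 start, a choice made after seeing the data. Precision is limited by 2 arrays a group, and small differences were not detectable.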

Other observations

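Several genes in no list, or outside the naming rule, stood out once their values were seen. Actc1, the cardiac actin gene, read 8.52 and 8.62 in mesenchyme, 11.14 and 11.25 in stalk and 5.91 and 6.11 in tip, with a stalk minus mesenchyme difference of 2.62 ± 0.13. Plcxd3, a phospholipase-domain gene, read 7.11 and 6.66, 9.99 and 9.78, and 4.95 and 4.36 in the same order, and Kcnk2, a potassium channel gene, read 7.72 and 7.24, 9.45 and 9.04, and 4.77 and 4.90. For these genes stalk was the highest tissue and tip the lowest, as for Car3, Tshz3 and Tbx18. Cldn11, unlike the claudins of the collecting duct, read 4.43 and 4.32 in mesenchyme, 6.58 and 6.52 in stalk and 3.71 and 3.44 in tip. Foxa1, a factor of the urothelium, read 4.90 and 4.72, 7.09 and 6.86, and 4.57 and 5.04.

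Other genes were higher in stalk than in mesenchyme and higher still in tip. Hoxd1, which was not in the Hox list, read 4.09 and 3.91 in mesenchyme, 7.73 and 7.45 in stalk and 8.61 and 8.34 in tip, a stalk minus mesenchyme difference of 3.59 ± 0.16. Pkhd1, the gene of recessive polycystic kidney disease, read 2.88 and 3.11, 6.84 and 6.66, and 7.50 and 6.92. Its mesenchyme values lie below the lower quartile of those arrays. Erbb3, a receptor of neuregulins, read 5.23 and 5.59, 9.14 and 9.17, and 10.42 and 10.22, and its other probe set differed by 0.61, with a median over both of 2.18.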
